A study of Mus musculus with 18 samples.

Results

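The genes described here are 10 transcripts of neutrophil granules and of the cytosolic alarmin S100a8/S100a9: S100a8, S100a9, Ngp, Camp, Ltf, Retnlg, Mmp8, Mmp9, Elane and Mpo. They were taken by symbol from tables of 34579 loci in dorsal spinal tissue, and each symbol had a single locus per table. The genes were selected on the FPKM values of these same saline and CFA groups, with earlier results known, so the levels and ratios below are a description and carry no test. Dorsal spinal tissue of segments L3–5 was profiled by RNAseq in 18 C57BL/6 mice (C57BL/6N in the study's methods) of 3 months, which had received rAAV into the spinal parenchyma on both sides after laminectomy and, weeks later, an intraplantar injection into a single hindpaw 24 h before collection. The rAAV carried LacZ as control, the wild-type histone deacetylase HDAC4 (HDAC4 wt), or its 3SA form (HDAC4 3SA), a mutant with altered phosphorylation sites that stays in the nucleus, and the injection was saline or Complete Freund's Adjuvant (CFA), an oil emulsion with killed mycobacteria that inflames the paw. This gave 6 groups of 3 mice: LacZ saline, LacZ CFA, HDAC4 wt saline, HDAC4 wt CFA, HDAC4 3SA saline and HDAC4 3SA CFA. All mice thus carried a virus and had undergone spinal surgery, and no group without rAAV was analysed here. Whether the tissue taken for RNA had been perfused is not given in the sources used here.

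Neutrophils make their granules in sequence while they mature in the bone marrow. Primary granules form in promyelocytes and hold the serine protease elastase (Elane) and myeloperoxidase (Mpo). Secondary granules form in myelocytes and hold lactoferrin (Ltf), the cathelicidin antimicrobial peptide (Camp) and neutrophilic granule protein (Ngp). Gelatinase granules follow and hold the matrix metalloproteinase Mmp9, while Mmp8 is the neutrophil collagenase and Retnlg a resistin-like protein of late-stage neutrophils. S100a8 and S100a9 form calprotectin, the most abundant cytosolic protein complex of neutrophils, which binds zinc, manganese and calcium and acts as an alarmin when released. Transcripts of primary granule proteins are largely lost as the cell matures, and those of calprotectin persist in circulating cells. The resting spinal cord holds very few neutrophils.

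The tables gave each gene's level as FPKM, mapped fragments scaled to exon length and to the size of the library, with a single estimate per group over its 3 mice. Counts, depth and values of single mice are not part of them, so no level has an SD or an interval, and with the authors' own comparison columns left aside no difference was set against the spread between mice. Each vector had a table of its own, so it was taken to be normalized in a run of its own. Ratios of CFA to saline were therefore read within a vector, and levels set across vectors are a description in which vector and run cannot be told apart. The dorsal tissue was recognisable by its neurons, with summed marker levels of 1066 to 1754 FPKM, and by its dorsal horn neurons, with 224 to 334 FPKM. A gene listed at 0 is given as such, since a 0 in these tables can be a failed estimate and need not be an absent transcript. Hdac4 ranged from 7.41 FPKM in LacZ saline mice to 10.8 FPKM in HDAC4 wt CFA mice, which counts endogenous and any matching viral transcript together. In bulk tissue, fewer cells of a type and less RNA per cell cannot be told apart.

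The start regions of the genes were read for the letters of a C/EBP-like site, since C/EBP factors are the known regulators of secondary granule genes. RefSeq windows from 250 bases before to 50 bases after the start (GRCm38.p6) were given for 9 of the 10 genes, all but Mmp9, and these starts can differ from those of the loci in the tables. The letters TTGCNNAA, or TTNNGCAA on the other strand, were found in the windows of 5 of these 9 genes and in 10.8% of all 32851 windows. The stretches below run 5′ to 3′ on the gene's own strand, with the matching letters in capitals.
Ltf, chr9:111019206-111019235, + strand, match from 75 bases before the start: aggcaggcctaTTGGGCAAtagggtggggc
Ngp, chr9:110419659-110419688, + strand, match from 138 bases before the start: gtcctggtttaTTGCCCAAacctccttgcc
Ngp, chr9:110419778-110419807, + strand, match from 11 bases before the start: tttatgtcaccggcagttcTTGGGCAAggc
Mmp8, chr9:7558399-7558428, + strand, match from 19 bases before the start: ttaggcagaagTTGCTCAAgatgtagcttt
Retnlg, chr16:48872358-48872387, + strand, match from 246 bases before the start: agctTTCTGCAAggcattccaggcacctcc
S100a9, chr3:90695939-90695968, − strand, match from 236 bases before the start: ggtaggctgtcTTGCTTAAgatttgggcgg
Ltf and Ngp, of the secondary group, and Mmp8 and Retnlg, of the late group, held the letters, whereas Camp, the third secondary gene, did not within this window.

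A second set of letters, GAGGAAG or CTTCCTC on the other strand, resembles sites of PU.1, the factor that drives myeloid differentiation. It was found in the windows of 4 of the 9 genes and in 13.6% of all windows, and both primary granule genes were among the 4. The stretches of Elane, Mpo and S100a8 are shown because these genes lacked the C/EBP-like letters, and the last line shows the TATA box letters (TATAAA, or TTTATA on the other strand, found in 13.6% of all windows and 3 of the 9) of S100a8. The matches printed do not overlap each other.
Elane, chr10:79886216-79886245, + strand, match from 85 bases before the start: cgtgtcccaggGAGGAAGtagggctgtggc
Mpo, chr11:87793549-87793578, + strand, match from 224 bases before the start: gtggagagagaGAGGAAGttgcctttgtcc
S100a8, chr3:90668889-90668918, + strand, match from 171 bases before the start: caacactcccaCTTCCTCagactcagaaat
S100a8, chr3:90669029-90669058, + strand, match from 30 bases before the start: caagctttcctcTATAAAagcagctgacac
These matches are descriptions of the sequence, and binding at them was not measured.

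S100a8 and S100a9 were the most abundant of the 10 genes in every group and had the highest level of all in LacZ CFA mice. S100a8 (chr3:90669025-90670073) had 3.54 FPKM in LacZ saline and 36.8 FPKM in LacZ CFA mice, 12.6 and 10.7 FPKM with HDAC4 wt, and 20.6 and 13.4 FPKM with HDAC4 3SA. S100a9 (chr3:90692626-90695713) had 4.96 and 52.8 FPKM, 19.2 and 13.8 FPKM, and 27.0 and 18.4 FPKM in the same order. Both were lowest in LacZ saline mice and highest in LacZ CFA mice, and all 4 HDAC4 groups lay between these. The CFA level was 10.4-fold (S100a8) and 10.6-fold (S100a9) the saline level with LacZ, 0.846-fold and 0.719-fold with HDAC4 wt, and 0.650-fold and 0.680-fold with HDAC4 3SA.

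Ngp, a cathelin-related protein of secondary granules, led the granule genes in LacZ CFA mice. Ngp (chr9:110419776-110423036) had 0.857 and 10.1 FPKM in LacZ saline and CFA mice, 3.93 and 1.66 FPKM with HDAC4 wt, and 5.63 and 2.28 FPKM with HDAC4 3SA. Camp (chr9:109847378-109849491), the precursor of the antimicrobial peptide CRAMP, had 0.671 and 5.97 FPKM, 2.51 and 0.846 FPKM, and 3.67 and 1.80 FPKM. Ltf (chr9:111019300-111042409), the iron-binding lactoferrin, had 0.472 and 3.65 FPKM, 1.15 and 0.693 FPKM, and 1.83 and 0.953 FPKM. The 3 genes kept the order Ngp, Camp, Ltf in all 6 groups. With LacZ the CFA level was 11.8-fold (Ngp), 8.90-fold (Camp) and 7.74-fold (Ltf) the saline level. With either HDAC4 vector the CFA level was the lower: 0.423-fold, 0.337-fold and 0.603-fold with HDAC4 wt, and 0.405-fold, 0.492-fold and 0.520-fold with HDAC4 3SA.

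The late genes did not move as a group. Retnlg (chr16:48872617-48874496) had 0.529 and 2.84 FPKM in LacZ saline and CFA mice, 1.92 and 0.749 FPKM with HDAC4 wt, and 2.87 and 1.48 FPKM with HDAC4 3SA. Its CFA level was 5.37-fold, 0.390-fold and 0.515-fold the saline level, close in pattern to the secondary granule genes, except that HDAC4 3SA saline mice matched LacZ CFA mice. Mmp8 (chr9:7560433-7568488) had 0.0908 and 0.559 FPKM, 0.336 and 0.229 FPKM, and 0.348 and 0.431 FPKM. Its mean stayed under 0.5 FPKM in each vector. Mmp9 (chr2:164940714-164955843), which neurons, glia and vessels can also express, had 3.20 and 4.50 FPKM, 2.31 and 2.71 FPKM, and 2.92 and 2.44 FPKM. Its CFA level was 1.41-fold, 1.18-fold and 0.837-fold the saline level, and over the 6 groups it spanned 1.95-fold, against 5.44-fold for Retnlg and 11.8-fold for Ngp.

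The primary granule genes were at the bottom of the range. Elane (chr10:79886317-79888159) had 0.0852 and 0.654 FPKM in LacZ saline and CFA mice, 0.164 and 0.0236 FPKM with HDAC4 wt, and 0.125 and 0.167 FPKM with HDAC4 3SA. LacZ CFA was the highest group and HDAC4 wt CFA the lowest, a 27.7-fold span between values that both lie under 1 FPKM. Mpo had 0.0867 and 0.572 FPKM with LacZ, 0.293 and 0.0387 FPKM with HDAC4 wt, and 0.241 and 0.197 FPKM with HDAC4 3SA. Mpo was not compared between LacZ and HDAC4 tables, because its rows cover different pieces of the gene. The LacZ row lies at chr11:87797331-87804411, over exons 8 to 14 of 14 and 52.3% of the exon bases, whereas the HDAC4 rows lie at chr11:87794777-87796436, over exons 3 to 7 and 26.5% of the exon bases. Gm11505, an annotated gene on the opposite strand, is listed at that second place, and although the cDNA libraries were strand-specific, the strand setting used in counting is not given in the sources used here, so the Mpo values of HDAC4 mice are uncertain. The other 9 genes had the same place in all tables.

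**Figure D1:**
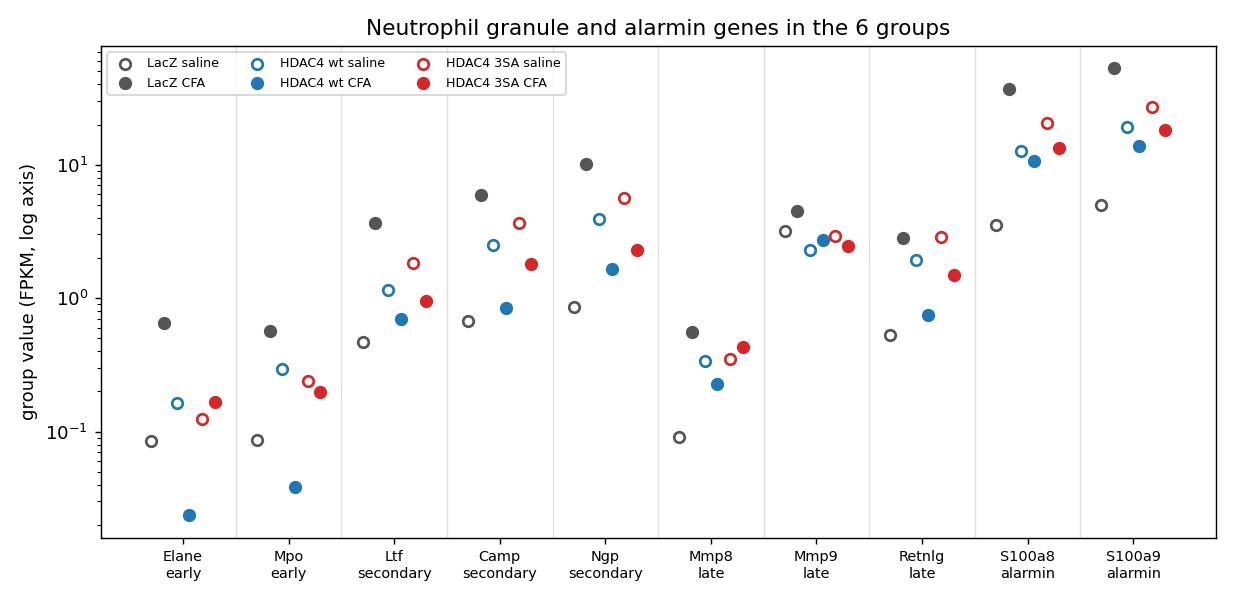
Level of each of the 10 genes in FPKM (log axis) by vector, with open points for saline and filled points for CFA groups, 1 estimate per group of 3 mice and no error. Of the 9 genes that can be read across vectors, all but Retnlg were highest in LacZ CFA mice, Retnlg had its highest value (2.87 FPKM) in HDAC4 3SA saline mice, and the Mpo points of LacZ and HDAC4 vectors come from different pieces of the gene.

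Set beside all loci, the LacZ mice had most of the genes on the high side after CFA and the HDAC4 mice had some on the low side. Ratios were taken as log2 of CFA over saline with 0.1 FPKM added to each, and loci were counted where the mean of both groups reached 0.5 FPKM, which 7 of the 10 genes did in each vector (Elane, Mpo and Mmp8 did not). Since the genes were chosen with these contrasts known, the counts are given with their background and nothing is read from them. With LacZ, 6 of the 7 were at least 2-fold higher after CFA, against 1.32% of 21440 loci, and 0 were 2-fold lower, against 1.30% of loci. The exception was Mmp9 (log2 ratio 0.48). With HDAC4 wt, 0 of the 7 were 2-fold higher, against 2.86% of 22069 loci, and 3 (Camp, Ngp and Retnlg) were 2-fold lower, against 1.88%. With HDAC4 3SA, 0 of the 7 were 2-fold higher, against 3.94% of 22036 loci, and 1 (Ngp) was 2-fold lower, against 1.67%. Just inside the 2-fold mark in HDAC4 3SA mice was Ngp with a log2 ratio of -1.27, and just outside it was Camp with -0.98.

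The median log2 ratio of the 7 genes was 2.98 with LacZ, -0.66 with HDAC4 wt and -0.88 with HDAC4 3SA, where the median of all loci was 0.00, 0.01 and 0.01. Ngp had the highest ratio with LacZ (3.41), followed by S100a9 (3.38), S100a8 (3.34), Camp (2.98), Ltf (2.71), Retnlg (2.23) and Mmp9 (0.48). Within HDAC4 wt mice the order was another one. Camp (-1.46), Retnlg (-1.25) and Ngp (-1.19) were lowest, Ltf had -0.66, and S100a9 (-0.47) and S100a8 (-0.24) were nearer to 0. Within HDAC4 3SA mice Ngp had -1.27, Camp -0.98, Retnlg -0.91, Ltf -0.88, S100a8 -0.62 and S100a9 -0.55. In both HDAC4 vectors the calprotectin genes thus had higher ratios than the 3 secondary granule genes and Retnlg, although without values per mouse no order between neighbours was set against an error. Counting every gene without a minimum level, 10 of 10 were higher after CFA with LacZ, 1 with HDAC4 wt (Mmp9) and 2 with HDAC4 3SA (Elane and Mmp8). Of all loci above 0 in a group, 49.4%, 52.5% and 51.6% were higher after CFA in these vectors.

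**Figure D2:**
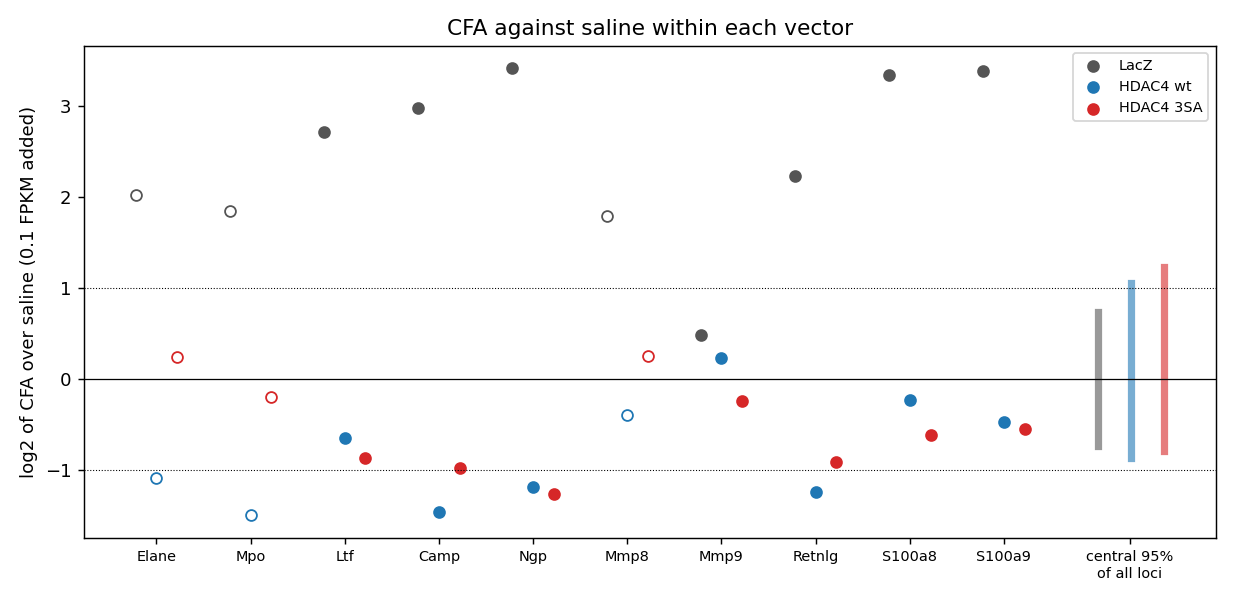
Log2 ratio of CFA to saline (0.1 FPKM added) for each gene in the 3 vectors; open points have a mean under 0.5 FPKM, dotted lines mark 2-fold, and the bars at the right show the central 95% of all loci in each vector. All 10 LacZ points are above 0, and the points of HDAC4 wt and HDAC4 3SA mice are below 0 apart from Mmp9 in HDAC4 wt and Elane and Mmp8 in HDAC4 3SA mice.

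The share of the gene classes within a group does not depend on the scaling of the tables, since each ratio is taken within a single estimate. S100a9 and S100a8 kept almost the same ratio throughout: it was 1.40 and 1.44 in LacZ saline and CFA mice, 1.52 and 1.29 in HDAC4 wt mice, and 1.31 and 1.37 in HDAC4 3SA mice, a 1.18-fold range over a 10.4-fold range of S100a8. The summed secondary granule genes over the summed calprotectin genes gave 0.235 and 0.220 with LacZ and, after saline, 0.239 with HDAC4 wt and 0.234 with HDAC4 3SA. After CFA the ratio was 0.131 with HDAC4 wt and 0.159 with HDAC4 3SA. The 3 saline groups and the LacZ CFA group were therefore within 0.220 to 0.239, with both HDAC4 CFA groups beneath them. Camp over S100a8 moved most among the secondary genes, from 0.162 to 0.199 in those 4 groups to 0.0793 in HDAC4 wt CFA and 0.135 in HDAC4 3SA CFA mice.

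Retnlg and Mmp8 gave a different split. Their sum over the calprotectin genes was 0.0728, 0.0710 and 0.0677 in the saline groups of LacZ, HDAC4 wt and HDAC4 3SA mice and 0.0380, 0.0400 and 0.0602 in the CFA groups, so here the LacZ CFA group was low as well. Over the secondary granule genes the same sum was 0.310, 0.297 and 0.290 after saline and 0.172, 0.306 and 0.380 after CFA, lowest in LacZ CFA mice. Elane over S100a8 ranged from 0.00221 in HDAC4 wt CFA to 0.0241 in LacZ saline mice, a 10.9-fold range that rests on levels far under 1 FPKM. Mmp9 over S100a8 was 0.903 in LacZ saline mice and 0.122 to 0.255 in the other 5 groups. Mmp9 was at nearly the level of S100a8 in the group with the least calprotectin transcript and far below it in all others.

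**Figure D3:**
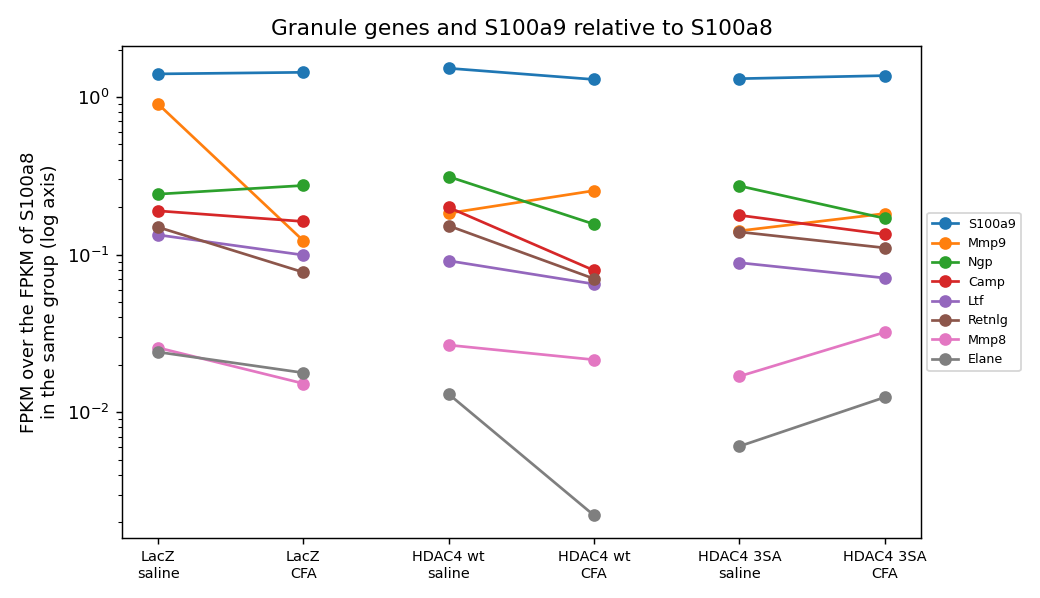
Level of 8 genes divided by that of S100a8 in the same group (log axis), with a line from the saline to the CFA group of each vector and 1 value per group of 3 mice. S100a9 stays between 1.29 and 1.52 in all groups, Camp and Ngp are lowest in HDAC4 wt CFA mice (0.0793 and 0.156), and Mmp9 is highest in LacZ saline mice (0.903).

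In FPKM, the calprotectin genes summed to 8.50 in LacZ saline, 31.8 in HDAC4 wt saline and 47.6 in HDAC4 3SA saline mice, and to 89.5, 24.4 and 31.8 in the CFA groups. The secondary granule genes summed to 2.0, 7.59 and 11.1 FPKM after saline and 19.7, 3.20 and 5.04 FPKM after CFA. After saline, HDAC4 3SA mice had the most of both classes and LacZ mice the least, and after CFA LacZ mice had the most and HDAC4 wt mice the least. Of the 7 genes that reached 0.5 FPKM, 6 were at least 2-fold higher with HDAC4 wt than with LacZ after saline and 0 were 2-fold lower, where 7.66% of all loci were higher and 4.01% lower. With HDAC4 3SA the counts were 6 higher and 0 lower than with LacZ, where 6.23% of loci were higher and 3.69% lower. After CFA, 6 were 2-fold lower and 0 higher with HDAC4 wt than with LacZ, where 1.62% of loci were lower and 8.08% higher. With HDAC4 3SA, 5 were 2-fold lower and 0 higher than with LacZ, where 3.56% of loci were lower and 9.23% higher.

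By gene, the saline levels of HDAC4 wt mice were 3.56-fold (S100a8), 3.86-fold (S100a9), 4.59-fold (Ngp), 3.74-fold (Camp), 2.44-fold (Ltf) and 3.63-fold (Retnlg) those of LacZ mice, and Mmp9 was 0.722-fold. The saline levels of HDAC4 3SA mice were 5.83-fold, 5.44-fold, 6.57-fold, 5.47-fold, 3.88-fold, 5.44-fold and 0.913-fold those of LacZ mice in the same order. All of these genes but Mmp9 thus had higher saline levels with both HDAC4 vectors than with LacZ. After CFA, the LacZ level was 3.45-fold that of HDAC4 wt mice for S100a8, 3.83-fold for S100a9, 6.07-fold for Ngp, 7.06-fold for Camp, 5.27-fold for Ltf, 3.79-fold for Retnlg and 1.66-fold for Mmp9. Against HDAC4 3SA mice it was 2.74-fold, 2.88-fold, 4.43-fold, 3.31-fold, 3.83-fold, 1.92-fold and 1.84-fold. These comparisons share their LacZ groups. Scaling the 6 groups to each other, with factors of 0.996 to 1.01, left each of these counts as it was.

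Other genes known from neutrophils were read by role. Among 6 further genes of primary granules and early precursors, 5 had a row, 2 reached 0.5 FPKM and 0 of these were 2-fold higher or lower in any vector, with medians of 0.35, -0.10 and 0.03 in LacZ, HDAC4 wt and HDAC4 3SA mice. Prtn3, proteinase 3 of primary granules, had 1.24 and 2.34 FPKM with LacZ, 1.49 and 1.23 FPKM with HDAC4 wt, and 1.65 and 1.82 FPKM with HDAC4 3SA. Ctsg, cathepsin G of the same granules, was listed at 0 in LacZ saline and HDAC4 wt CFA mice, had 0.696 FPKM in LacZ CFA mice, and had at most 0.145 FPKM elsewhere. Ms4a3, a marker of granulocyte and monocyte progenitors, was listed at 0 in LacZ and HDAC4 wt saline mice and had 0.310 FPKM in LacZ CFA mice. LacZ CFA was thus the highest group for these 3 of the 5 genes with a row. Gfi1, a transcriptional repressor needed for neutrophil development that is too low for the naming rule, went the other way, with 0.0146 and 0.0468 FPKM in the LacZ groups and 0.182 to 0.400 FPKM in the HDAC4 groups. Serpinb1a, an inhibitor of neutrophil serine proteases with wider expression, had 23.4 and 21.0 FPKM with LacZ and 15.0 to 16.9 FPKM in the HDAC4 groups.

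Further genes of secondary and tertiary granules were mixed: of 8, 4 reached 0.5 FPKM with LacZ and 3 with each HDAC4 vector, and 2, 1 and 2 of these were 2-fold higher after CFA in LacZ, HDAC4 wt and HDAC4 3SA mice, with 1 2-fold lower in HDAC4 3SA mice. The medians were 1.33, 0.35 and 1.20. By any amount, 7 of the 8 were higher after CFA with LacZ, 5 with HDAC4 wt and 4 with HDAC4 3SA. Of all loci above 0 in a group, 49.4%, 52.5% and 51.6% were. Lcn2, a siderophore-binding protein of secondary granules that reactive astrocytes also make, had 1.70 and 14.3 FPKM with LacZ, 3.41 and 10.7 FPKM with HDAC4 wt, and 5.12 and 15.9 FPKM with HDAC4 3SA. Unlike the 3 secondary granule genes above, Lcn2 was higher after CFA in all 3 vectors. Chil3 (Ym1), made by neutrophil precursors and some macrophages, had 0.243 and 1.52 FPKM, 0.947 and 0.947 FPKM, and 1.25 and 0.533 FPKM, and was the 1 lower gene in HDAC4 3SA mice. Itgb2l, a beta integrin of maturing neutrophils, was listed at 0 in LacZ saline and had 0.820 FPKM in LacZ CFA mice, with 0.0467 to 0.240 FPKM in HDAC4 groups. Cybb, the oxidase subunit shared by neutrophils, macrophages and microglia, had 0.864 and 1.18 FPKM with LacZ, 18.2 and 23.1 FPKM with HDAC4 wt, and 10.5 and 24.4 FPKM with HDAC4 3SA. Its LacZ groups were both low, which none of the 10 genes showed.

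The markers of mature neutrophils did not share a pattern over the 6 groups. Of 15 genes, 12 had a row, 4 to 5 reached 0.5 FPKM, and 1, 0 and 1 of these were 2-fold higher after CFA in LacZ (Wfdc21), HDAC4 wt and HDAC4 3SA mice (Clec4d, a myeloid lectin receptor). The medians were 0.31, 0.28 and 0.45. By any amount, 11 of the 12 were higher after CFA with LacZ, 5 with HDAC4 wt and 8 with HDAC4 3SA. Of all loci above 0 in a group, 49.4%, 52.5% and 51.6% were. Cxcr2, the chemokine receptor that calls neutrophils from the marrow, had 0.0779 and 0.672 FPKM with LacZ, 0.0315 and 0.143 FPKM with HDAC4 wt, and 0.0805 and 0.144 FPKM with HDAC4 3SA. Ly6g, the defining surface marker of mouse neutrophils, had 0.0860 and 0.374 FPKM, 0.0699 and 0.318 FPKM, and 0.343 and 0.147 FPKM. LacZ CFA was the highest group for 5 of the 12 genes with a row, both of these included, and an HDAC4 group was highest for 6. Clec4d was among the latter, with 0.0881 and 0.201 FPKM with LacZ, 0.790 and 1.45 FPKM with HDAC4 wt, and 0.585 and 1.72 FPKM with HDAC4 3SA. Wfdc21, of the whey acidic protein family, was listed at 0 in LacZ saline and had 1.62 FPKM in LacZ CFA mice, with 0.573 and 0.298 FPKM in HDAC4 wt and 0.886 and 0.732 FPKM with HDAC4 3SA. Csf3r, the G-CSF receptor of neutrophils that microglia also express, had 1.28 and 1.48 FPKM with LacZ and 6.59 to 11 FPKM in the HDAC4 groups.

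Recruitment genes were mixed. Of 12, 9 had a row and 4 reached 0.5 FPKM, with 1, 0 and 0 at least 2-fold higher after CFA in LacZ, HDAC4 wt and HDAC4 3SA mice and medians of 0.36, 0.20 and 0.46. Ppbp, a platelet chemokine precursor, had 0.766 and 2.83 FPKM with LacZ, 2.47 and 1.75 FPKM with HDAC4 wt, and 3.50 and 3.17 FPKM with HDAC4 3SA. It was the gene past 2-fold with LacZ, was lowest in LacZ saline mice and was highest in HDAC4 3SA saline mice. Icam1, the endothelial ligand of neutrophil integrins, had 1.24 and 1.90 FPKM with LacZ, 12.4 and 16.4 FPKM with HDAC4 wt, and 9.07 and 16.6 FPKM with HDAC4 3SA. Il1b, the inflammatory cytokine, had 0.0842 and 0.50 FPKM, 1.32 and 1.38 FPKM, and 0.909 and 1.45 FPKM. The highest levels of Icam1 and Il1b were thus in HDAC4 groups, not in LacZ CFA mice. Among the S100 relatives and calprotectin receptors, 3 of 6 genes reached 0.5 FPKM with LacZ and 5 with each HDAC4 vector, and 0 were 2-fold higher or lower in any vector (medians 0.50, 0.18 and 0.49). Hp, haptoglobin, which neutrophils store and which binds free haemoglobin, was the 1 gene of 4 inhibitor and iron-binding genes past 2-fold, with 0.204 and 1.98 FPKM with LacZ, 0.670 and 0.685 FPKM with HDAC4 wt, and 0.921 and 0.849 FPKM with HDAC4 3SA.

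**Figure D4:**
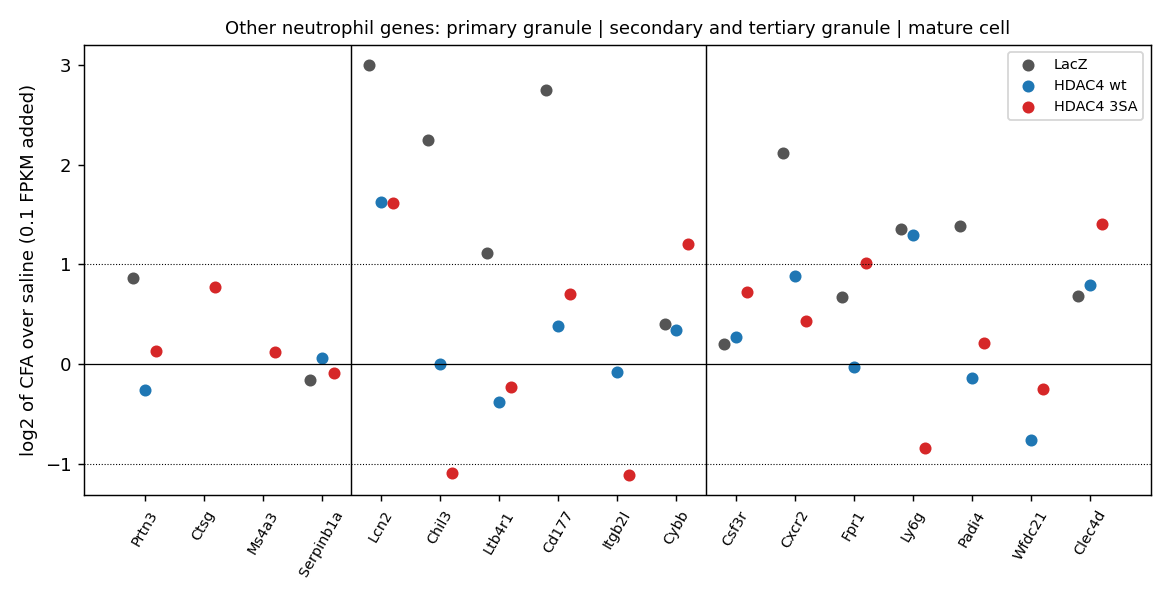
Log2 ratio of CFA to saline (0.1 FPKM added) for further genes of primary granules, of secondary and tertiary granules and of mature neutrophils in the 3 vectors, 1 value per vector; a vector with a group listed at 0 has no point, dotted lines mark 2-fold, and genes under 0.5 FPKM are included. Lcn2 is above the upper line in all 3 vectors, Chil3 is above it in LacZ mice and below the lower line in HDAC4 3SA mice, and the rows of Cd177 lie at different places in the tables.

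Markers of other blood cells moved with the granule genes in part. The red blood cell genes, of which 4 of 7 had a row, summed to 141 and 261 FPKM in LacZ saline and CFA mice, 187 and 203 FPKM with HDAC4 wt, and 348 and 395 FPKM with HDAC4 3SA. Hbb-bs, the adult beta globin, had 137 and 252 FPKM, 181 and 197 FPKM, and 339 and 384 FPKM. With LacZ the globin was thus also higher after CFA, by less than 2-fold, but its highest levels were in HDAC4 3SA mice. Slc4a1 (band 3 of the red cell membrane) was at the level of the granule genes and had 0.150 and 1.01 FPKM, 0.408 and 0.266 FPKM, and 0.379 and 0.284 FPKM in LacZ, HDAC4 wt and HDAC4 3SA mice. The platelet genes, 4 of 5 with a row, summed to 3.67 and 5.59 FPKM, 5.64 and 5.39 FPKM, and 6.23 and 7.01 FPKM. The part of blood in the levels of the granule genes was not tested.

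Monocyte and lymphocyte genes had their lowest sums in the LacZ groups, and some of them were also higher after CFA with LacZ. The 6 monocyte genes summed to 5.78 and 8.06 FPKM with LacZ, 63.7 and 67.1 FPKM with HDAC4 wt, and 40.6 and 59.1 FPKM with HDAC4 3SA. Ly6c2 made up most of the HDAC4 sums, with 48.2 and 48.5 FPKM with HDAC4 wt and 28.0 and 41.6 FPKM with HDAC4 3SA. Ccr2 of the same list had 0.400 and 0.715 FPKM with LacZ, 1.33 and 1.34 FPKM with HDAC4 wt, and 0.948 and 0.839 FPKM with HDAC4 3SA. The 6 B and plasma cell genes summed to 1.29 and 3.23 FPKM, 300 and 319 FPKM, and 193 and 260 FPKM, and the 6 T cell genes to 2.80 and 3.35 FPKM, 14.2 and 20.5 FPKM, and 7.88 and 14.1 FPKM. Both LacZ groups had the lowest sums of these lists, whereas the granule genes were highest in LacZ CFA mice. Within LacZ, 2 of the 5 monocyte genes and 2 of the 2 B and plasma cell genes that reached 0.5 FPKM were at least 2-fold higher after CFA. Ly6c2 of classical monocytes had 0.172 and 0.840 FPKM and Plac8, a myeloid and lymphoid gene, had 0.290 and 1.10 FPKM. The B cell receptor subunits had 0.333 and 1.18 FPKM (Cd79a) and 0.384 and 0.978 FPKM (Cd79b). Against the 1.32% of all loci, these counts rest on few genes: Vcan (3.40 and 3.69 FPKM) and F13a1 (1.38 and 1.48 FPKM) of the monocyte list were not past 2-fold, and neither were the 2 T cell genes that reached 0.5 FPKM (median 0.22). Genes of proliferating precursors summed to 2.45 and 3.85 FPKM, 6.26 and 6.30 FPKM, and 4.81 and 7.81 FPKM. Microglia genes summed to 100 and 102 FPKM, 316 and 368 FPKM, and 263 and 433 FPKM. Schwann cell genes, which mark nerve root in the dissected tissue, summed to 1009 and 1556 FPKM with LacZ, 1016 and 1002 FPKM with HDAC4 wt, and 1388 and 865 FPKM with HDAC4 3SA, so that the Schwann cell sum was higher after CFA with LacZ, lower with HDAC4 3SA and nearly even with HDAC4 wt. No gene of the red blood cell, platelet, monocyte, lymphocyte, proliferation, microglia or Schwann cell lists was listed at 0 in any group. Skeletal muscle genes, all 6 with a row, summed to 70.7 and 83.2 FPKM with LacZ, 48.6 and 40.3 FPKM with HDAC4 wt, and 98.3 and 86.3 FPKM with HDAC4 3SA. Pvalb made up most of each sum, with 56.0 and 54.3 FPKM, 42.8 and 38.0 FPKM, and 53.3 and 48.0 FPKM. The sums therefore show little of how the other genes of this list differed between groups. After CFA, 2 of 6 genes that reached 0.5 FPKM were 2-fold higher with LacZ (median 0.82), 2 of 5 were 2-fold lower with HDAC4 wt (median -0.52), and 0 of 6 were past 2-fold with HDAC4 3SA (median -0.30), so that the muscle medians had the signs of the granule gene medians in all 3 vectors. The medians of the Schwann cell genes (0.61, -0.03 and -0.74) and of the dorsal horn neuron genes (0.23, -0.18 and -0.28) had these signs too. Ckm, muscle creatine kinase, had 4.78 and 10.3 FPKM, 1.21 and 0.0688 FPKM, and 14.5 and 15.1 FPKM. The part of root tissue, of muscle and of each of these cell types in the levels of the granule genes was not tested.

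**Figure D5:**
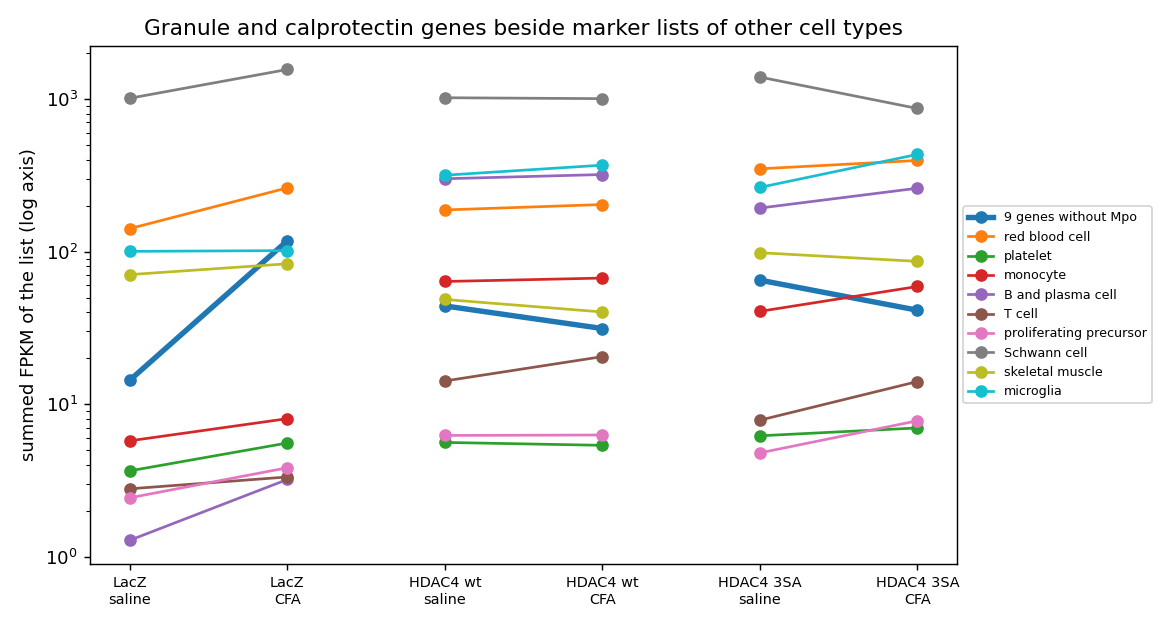
Summed FPKM (log axis) of the marker lists of other cell types and of the granule and calprotectin genes without Mpo (thick line), with a line from the saline to the CFA group of each vector and 1 value per group of 3 mice. The 9 genes summed to 14.4 and 118 FPKM with LacZ, 44.1 and 31.4 FPKM with HDAC4 wt, and 65.0 and 41.3 FPKM with HDAC4 3SA. Monocyte and B and plasma cell genes lie lowest in both LacZ groups (5.78 and 8.06 FPKM for monocytes, 1.29 and 3.23 FPKM for B and plasma cells), and red blood cell genes range from 141 to 395 FPKM.

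The likeness of the genes' profiles was read for 9 of them, without Mpo. Each was set against the mean standardised log2 profile, over the 6 group values, of the 7 genes that averaged at least 0.5 FPKM, leaving out itself where it was among them, as a description in which the points share normalization runs. Pearson's r was 0.997 for Ltf, 0.980 for Ngp, 0.965 for Camp, 0.952 for S100a9, 0.941 for S100a8, 0.896 for Retnlg, 0.866 for Mmp8, 0.824 for Elane and 0.409 for Mmp9. Among 19111 loci compared with the mean profile of the 7 genes that reached 0.5 FPKM, 45 had r of at least 0.9. Both numbers include these 7 genes themselves. With the granule and calprotectin genes left out, the 10 highest loci included Zswim1 (0.988), 3110082J24Rik (0.986), Zfp358 (0.979), D630036H23Rik (0.966), 4930520O04Rik (0.960), Trim30e-ps1 (0.959), Pqlc1 (0.959), Hpcal1 (0.955) and Grp (0.953). Most of them varied little, with the highest level 1.10-fold (Zfp358) to 1.44-fold (Grp) the lowest. D630036H23Rik (2.21-fold) and Trim30e-ps1 (7.11-fold) varied more. With 6 points a high r is reached by many loci, and nothing on shared function or control is read from it.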

How the data were processed

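RNA of dorsal spinal tissue was sequenced in 18 mice. The authors mapped reads to GRCm38 with TopHat and Bowtie and ran Cufflinks and Cuffdiff. They deposited 3 tables, 1 per vector, with 1 FPKM value per group of 3 mice, from which a separate run for each vector was inferred. These tables also hold Cuffdiff's fold changes, statistics, p-values and q-values, which were not used here. The libraries were strand-specific. The study's methods give only a minimum of reads per library, and depth per sample and the strand setting in counting are not given in the sources used here, so the precision of a value is unknown. The planned tests over mice could not be run on pooled values.

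Genes were matched by symbol. Log2 ratios were formed with 0.1 FPKM added, and loci with a mean of at least 0.5 FPKM were counted as changed at 2-fold (Python 3.11.15, pandas 2.3.3, numpy 2.4.6, matplotlib 3.10.9). The steps were tested on simulated data. Exons came from GENCODE and start regions from RefSeq. At 386 of 34579 loci the place differs between tables without overlap, and such loci were dropped between vectors. Members and gene lists were chosen with earlier results of these data known. Named were the 10 genes, members of the lists that averaged 1 FPKM or more over the groups or a 2-fold change in a table, the 10 loci most like the members, and the most abundant markers per cell type. Not all genes that the rule allows are reported here, and Slc4a1 and Gfi1 were added after their values were seen. Alternatives varied the added FPKM, the minimum, the fold, centring, scaling and the handling of rows.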

Additional observations from a re-analysis of the deposited data

How the results depend on the processing

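Of 80 values under alternatives, 60 were the same within a tolerance (counts within 1.5 times, medians equal at 2 decimals, sums equal at 3 digits), 20 moved and 0 reversed. Only medians could be labelled as reversed, not counts or sums. Summing the rows of a symbol could change nothing, since each symbol had a single locus per table. Within the tolerance, the count of genes higher after CFA with LacZ went from 6 to 9 without a minimum level, and that of genes lower with HDAC4 wt from 3 to 4 at 1.5-fold. The LacZ median log2 ratio (2.98) was 3.13 with 0.01 FPKM added, 2.06 with 1 FPKM added, 2.47 without a minimum level and 2.97 after centring. The HDAC4 wt median (-0.66) was -0.72 with 0.01 FPKM and -0.45 with 1 FPKM added, -0.83 with a minimum of 1 FPKM and -0.88 without one. The HDAC4 3SA median (-0.88) was -0.94 with 0.01 FPKM added and -0.59 both with 1 FPKM added and without a minimum. The count of genes lower after CFA with HDAC4 wt (3) was 0 with 1 FPKM added, 5 without a minimum and 0 at 4-fold. With HDAC4 3SA (1) it was 2 with 0.01 FPKM added, 5 at 1.5-fold and 0 at 4-fold. Scaling between tables moved the summed saline level of S100a8 and S100a9 from 8.50 to 8.54 FPKM (LacZ), 31.8 to 31.5 FPKM (HDAC4 wt) and 47.6 to 47.3 FPKM (HDAC4 3SA). The counts between vectors were the same under that scaling, an alternative chosen after seeing the data. Each of these changes follows from the alternative's own construction. Ratios of genes at low FPKM depend most on the FPKM added, and the depth that would give their precision is not known here. No paired analysis was possible because the tables hold 1 pooled value per group, and no mouse could be left out for the same reason.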

Other observations

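Genes that followed the granule genes and also varied widely were sought after the values were seen. With those genes themselves left out, 3 loci with r of at least 0.9 to their mean profile spanned at least 4-fold over the 6 groups or were listed at 0 in a group: Trim30e-ps1 (r of 0.959), Hp (0.925) and Wfdc21 (0.910). Trim30e-ps1, a pseudogene of the Trim30 family whose reads can be shared with its relatives, had 0.260 and 1.85 FPKM in LacZ saline and CFA mice, 0.586 and 0.338 FPKM with HDAC4 wt, and 0.635 and 0.552 FPKM with HDAC4 3SA.

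Slc4a1, a red cell gene, had r of 0.951 to the same profile, and Prtn3, a neutrophil gene, had 0.886. Krtdap, a gene of keratinising skin, was listed at 0 in all 3 saline groups and in HDAC4 3SA CFA mice and had 13.7 FPKM in LacZ CFA and 19.2 FPKM in HDAC4 wt CFA mice. The part of skin in any library was not tested.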
